A study of Homo sapiens with 6 samples.

Results

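The mRNAs of 10 circadian clock genes (CIART, PER1, PER2, PER3, CRY1, CRY2, NR1D1, NR1D2, DBP and BHLHE40) were followed in AVJ16-treated and DMSO-treated H1299 cells by RNA-seq. The genes were chosen by symbol because CIART was higher in the AVJ16 libraries of these same data, and 9 further clock genes were taken with it. All 10 were found among the 22004 genes of the counts table, and all 10 passed the filter on low counts that left 16330 genes for testing. Because the level of CIART selected the list, the values of CIART are given as a description without a test. The other 9 genes were tested with edgeR's quasi-likelihood test and Benjamini-Hochberg adjustment over all 16330 genes.

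H1299 is an established human line from a non-small cell lung cancer. It is labelled wild type here. AVJ16 is a compound described by the study as inhibiting the RNA-binding protein IGF2BP1, which protects many bound mRNAs from decay. One group of 3 libraries came from cells given 1.5 µM AVJ16 for 48 h and is called D, E and F, and the other group of 3 came from cells given a matching amount of the solvent DMSO for 48 h and is called A, B and C. Both groups grew in the same serum-containing medium, all libraries came from 1 cell line, and each group was harvested at 1 time point with no synchronisation step stated. The phase and the amplitude of a rhythm were therefore not measured. Fewer cells with a given mRNA and less of it per cell cannot be told apart in bulk RNA.

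The circadian clock of mammalian cells is a transcriptional feedback loop. CLOCK (or its paralog NPAS2) and BMAL1, the product of ARNTL, bind E-boxes and switch on the PER and CRY genes, whose proteins return to the nucleus and repress CLOCK and BMAL1. In a linked loop the same activators switch on NR1D1 and NR1D2, which encode the receptors REV-ERBα and REV-ERBβ, and these repress ARNTL through ROR elements. DBP is an output factor that activates genes through D-boxes, BHLHE40 (DEC1) competes for E-boxes as a repressor, and CIART, also called CHRONO and studied mainly in mice, is a repressor that binds BMAL1. The loop runs in most tissues, lung included, while in cancer lines its rhythm is often weak or lost.

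Promoter sequences are shown first for the 4 genes that stood highest in AVJ16 relative to DMSO (CIART, NR1D1, PER1 and PER2). The sequence of NR1D2, the paralog of NR1D1, is also shown, since it held E-boxes but the gene did not pass the test. RefSeq windows of 300 bases (250 before the transcription start and 50 from it, build GRCh38.p14) were found for all 10 genes, with 13 windows in all because PER3, CRY2 and NR1D2 each had 2 starts. Capitals mark the E-box CACGTG, which reads the same on both strands, and its variant E′-box CACGTT, which reads AACGTG on the other strand. Each sequence runs 5′ to 3′ on the strand of the gene. The CIART window lies on chr1:150282304-150282603 on the plus strand, NR1D1 on chr17:40100540-40100839 on the minus strand, PER1 on chr17:8152355-8152654 on the minus strand, PER2 on chr2:238288561-238288860 on the minus strand and NR1D2 on chr3:23945871-23946170 on the plus strand.
CIART: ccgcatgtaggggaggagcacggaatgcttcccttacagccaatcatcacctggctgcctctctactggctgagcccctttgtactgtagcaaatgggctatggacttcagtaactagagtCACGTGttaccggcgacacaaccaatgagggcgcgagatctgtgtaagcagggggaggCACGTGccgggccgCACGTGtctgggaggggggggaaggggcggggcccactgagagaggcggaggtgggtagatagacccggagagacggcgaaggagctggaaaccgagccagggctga
NR1D1: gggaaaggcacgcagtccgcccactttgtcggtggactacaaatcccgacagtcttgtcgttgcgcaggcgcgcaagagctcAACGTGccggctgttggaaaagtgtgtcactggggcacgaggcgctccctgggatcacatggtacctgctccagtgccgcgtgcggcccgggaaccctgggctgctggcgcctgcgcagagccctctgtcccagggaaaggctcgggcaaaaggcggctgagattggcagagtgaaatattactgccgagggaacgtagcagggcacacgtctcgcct
PER1: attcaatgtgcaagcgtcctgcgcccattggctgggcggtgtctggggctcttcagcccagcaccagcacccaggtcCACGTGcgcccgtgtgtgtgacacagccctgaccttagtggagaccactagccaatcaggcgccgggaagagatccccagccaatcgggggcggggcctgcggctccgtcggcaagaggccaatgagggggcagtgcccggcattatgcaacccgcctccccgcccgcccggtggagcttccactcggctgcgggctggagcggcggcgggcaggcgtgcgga
PER2: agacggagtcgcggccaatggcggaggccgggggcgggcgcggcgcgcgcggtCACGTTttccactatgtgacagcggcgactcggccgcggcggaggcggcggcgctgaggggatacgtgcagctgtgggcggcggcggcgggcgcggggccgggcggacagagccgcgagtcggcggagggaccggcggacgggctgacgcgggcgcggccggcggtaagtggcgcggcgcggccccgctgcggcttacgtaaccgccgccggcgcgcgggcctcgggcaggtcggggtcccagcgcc
NR1D2: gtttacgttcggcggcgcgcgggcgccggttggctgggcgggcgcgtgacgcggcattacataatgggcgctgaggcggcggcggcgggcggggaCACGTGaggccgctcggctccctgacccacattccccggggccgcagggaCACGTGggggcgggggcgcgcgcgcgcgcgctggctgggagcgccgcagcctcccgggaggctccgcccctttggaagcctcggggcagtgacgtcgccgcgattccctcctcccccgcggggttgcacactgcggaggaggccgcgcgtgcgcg

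CIART held 3 E-boxes, at -129, -71 and -57 bases from the start. Among the 16431 windows of tested genes, of the same length, 9.30% held at least 1 E-box, 0.949% at least 2 and 0.158% at least 3, and among all 35114 windows the shares were 7.26%, 0.664% and 0.094%. NR1D2 held 2 E-boxes at its downstream start, at -155 and -105 bases, while its other window held none. PER1 held 1 at -173 bases, and BHLHE40 held 1 at -245 bases. The E′-box was found in PER2, CRY1, CRY2 and NR1D1 and in 5.81% of the windows of tested genes and 5.34% of all windows. Together 8 of the 13 windows held an E-box or an E′-box, compared with 14.6% of the windows of tested genes, and DBP and PER3 had neither in these windows.

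The D-box (TTATGCAA or TTATGTAA, both strands) was found in PER1, PER3 and NR1D2 and in 1.71% of all windows. The ROR element (TAGGTCA or TGGGTCA, both strands) was found in CRY2 and NR1D2 and in 5.69% of all windows, and the cyclic AMP response element TGACGTCA was in none of the 13 windows and in 1.85% of all windows. None of these words overlapped an E-box or an E′-box in the clock gene windows. Transcripts of PER1 and PER2 in GENCODE 44 also begin upstream of the windows, so other promoters of these genes were not searched. A match is a run of letters and no measure of binding. Among 1420 tested genes with an E-box in any window, 5.07% were higher in AVJ16 at an adjusted p under 0.05, compared with 5.91% of 9823 tested genes with none.

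**Figure D1:**
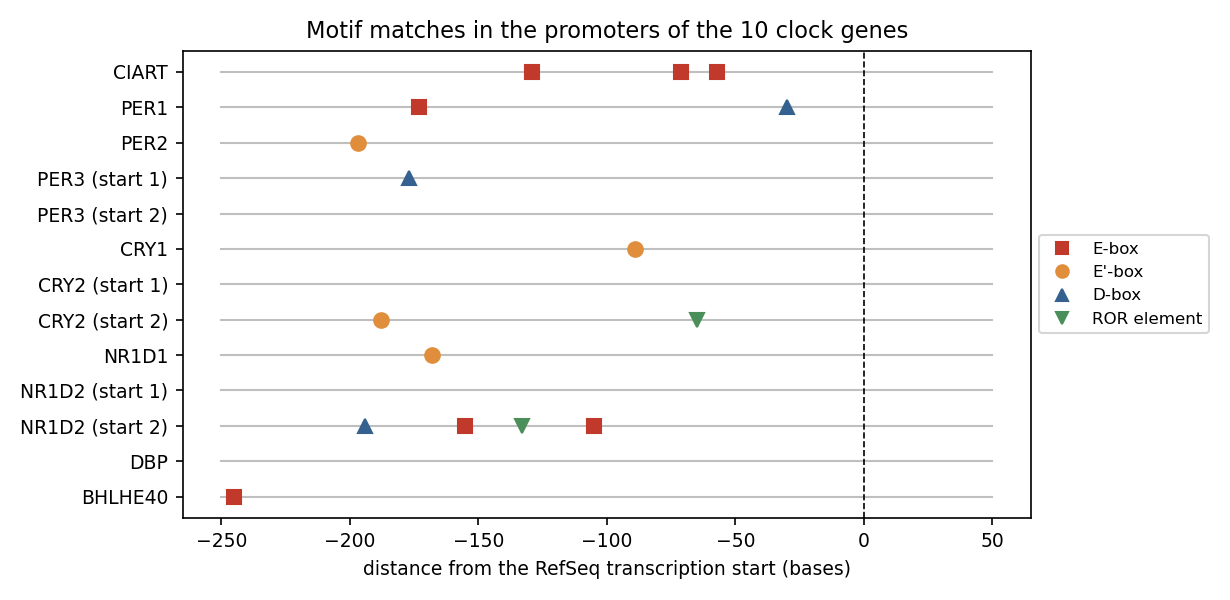
Motif matches (symbols) in the RefSeq promoter windows of the 10 clock genes, plotted by distance in bases from the transcription start, with 1 line for each window and 2 lines for genes with 2 starts. CIART holds 3 E-boxes and NR1D2 holds 2 at its downstream start, while DBP holds no match.

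The libraries held 19353830 to 30253721 counts. Across all genes 2390 of 16330 (14.6%) passed an adjusted p of 0.05, of which 958 (5.87%) were higher and 1432 (8.77%) lower in AVJ16. Library D stood apart from the others, since mitochondrially encoded mRNAs took 11.9% of its counts compared with 5.13% to 6.66% in the other 5 libraries. IGF2BP1, the target of the drug, had 239 to 260 CPM (counts per 1000000 counts, scaled by TMM) in AVJ16 and 264 to 267 CPM in DMSO (adjusted p = 0.441). Of the H1299 and epithelial markers, VIM, KRT8, KRT18, CDH2 and IGF2BP1 were measured well above the filter and the lung epithelial markers CDH1, EPCAM and NKX2-1 stayed under 2 CPM in every library. Of these markers, VIM was higher at 0.39 (adjusted p = 0.0449) and CDH1 was lower at -2.53 (adjusted p = 0.00478) on the log2 scale. Of 9 markers of blood, vessel, liver and fibroblast cells, 5 were in the table, and these summed to 3.11 to 4.27 CPM of all counts in AVJ16 and 4.85 to 6.46 in DMSO, mostly COL1A1. COL1A1 alone of these passed the filter on low counts and was lower in AVJ16, at -0.81 on the log2 scale (adjusted p = 0.0293), and PTPRC, CD3E, HBB and ALB were not among the genes of the table. The calls of VIM and COL1A1 were lost without F, A, B or C, and that of VIM also without E (adjusted p of up to 0.216 and 0.118).

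CIART (ENSG00000159208, chr1:150282543-150287093 of GRCh38, plus strand, protein-coding) was higher in every AVJ16 library than in any DMSO library. It had 9.27, 11.2 and 10.3 CPM in AVJ16 libraries D, E and F, against 4.22, 5.02 and 3.71 CPM in DMSO libraries A, B and C. The lowest AVJ16 value was well above the highest DMSO value. The mean was 10.2 ± 0.952 CPM in AVJ16 and 4.32 ± 0.663 CPM in DMSO (SD, n = 3 each), a log2 fold change of 1.24, written below as a log2 change, or 2.35-fold. In 12 alternative settings, among them each library left out, the value was 1.13 to 1.37. CIART had 203 to 306 counts per library in AVJ16 and 76 to 151 in DMSO. No exon of another gene overlapped its exons, so strand could not mix its counts with those of a neighbour.

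**Figure D2:**
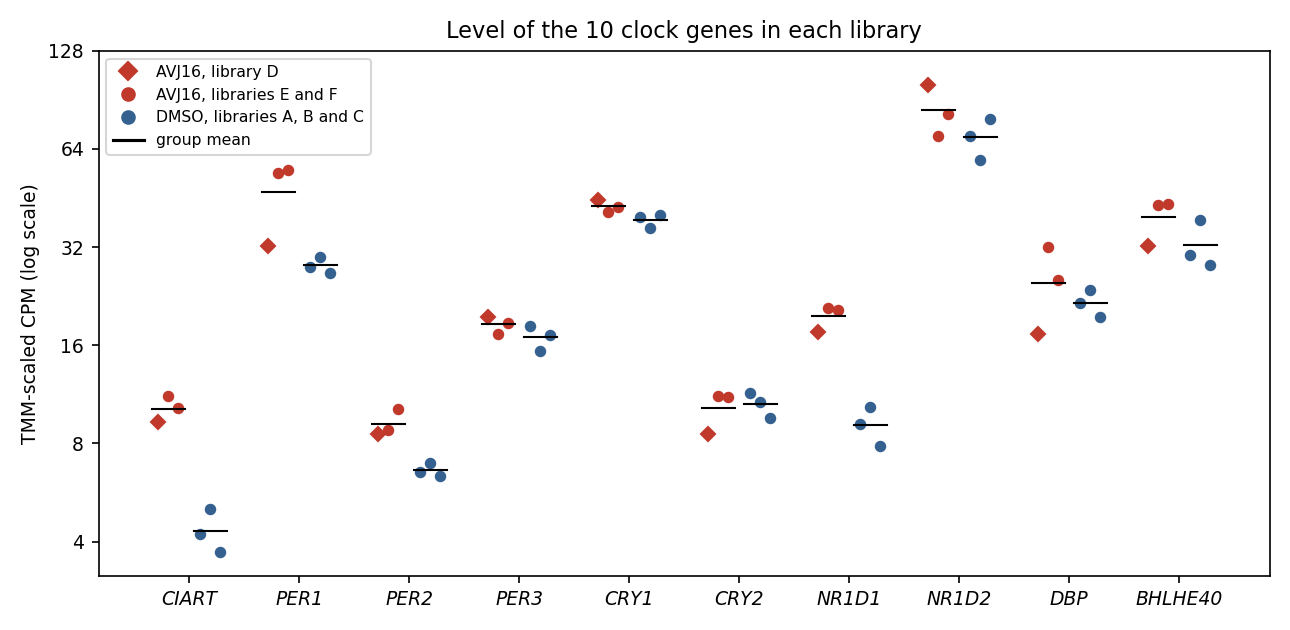
TMM-scaled CPM (log scale) of the 10 clock genes in each library, AVJ16 in red on the left (diamond, library D) and DMSO in blue on the right of each gene, with lines for group means. CIART, NR1D1, PER1, PER2 and CRY1 have all AVJ16 values above all DMSO values. Library D sits below both E and F in 7 of the 10 genes, beside 7042 of all 16330 tested genes.

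Of the other 9 genes, NR1D1, PER1 and PER2 rose in AVJ16 and none fell. The 3 of 9 stand beside 5.87% of all tested genes that were higher, but the list was chosen on this contrast and nothing is read from that count. With CIART left out, all AVJ16 values exceeded all DMSO values in 4 of the 9 genes, as they did in 16.5% of all genes tested. The median log2 fold change was 0.28 over these 9 genes and -0.01 over all tested genes. Nothing is read from these values either, for the same reason.

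NR1D1 (ENSG00000126368, chr17:40092793-40100589, minus strand), which encodes the heme-binding repressor REV-ERBα, had the largest rise among the 9. It had 17.5, 20.8 and 20.6 CPM in D, E and F, against 9.17, 10.4 and 7.86 CPM in A, B and C. The groups did not overlap, and D was the lowest of the AVJ16 libraries. The log2 fold change was 1.10 (95% confidence interval, CI, 0.78 to 1.42, adjusted p = 0.00227), or 2.14-fold, and the mean was 19.6 ± 1.81 CPM in AVJ16 and 9.14 ± 1.26 CPM in DMSO. The call held in each of 12 alternative settings, with log2 changes of 0.99 to 1.20 and an adjusted p of at most 0.0177.

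Exons of THRA, the thyroid hormone receptor α gene, run on the opposite strand across 473 bases, or 18.0%, of the exons of NR1D1. The library kit marks strand, but whether counting used the strand was not stated in the sources used here. THRA had 15.1, 14.8 and 14.2 CPM in D, E and F, against 21.1, 23.4 and 16.7 CPM in A, B and C. THRA therefore stood lower in AVJ16 where NR1D1 stood higher, at a log2 change of -0.47 that did not pass the test (adjusted p = 0.0532). It did pass in 5 of the 12 alternative settings, among them without D, at -0.50 (adjusted p = 0.00641), and without C, at -0.60 (adjusted p = 0.0460). The others were scaling by library size alone, DESeq2 and voom sample weights.

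NR1D2 (ENSG00000174738, chr3:23945286-23980617, plus strand), the REV-ERBβ gene, did not pass. It was the most highly counted of the 10 genes, with 101, 69.9 and 81.8 CPM in D, E and F, against 70.4, 59.3 and 79.0 CPM in A, B and C. The groups overlapped, and the highest value was that of D. The log2 fold change was 0.28 (95% CI -0.08 to 0.63, adjusted p = 0.268) and 0.13 without D (adjusted p = 0.403). A change of the size seen in NR1D1 lies outside this interval, although the difference between the paralogs was not itself tested.

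PER1 (ENSG00000179094, chr17:8140472-8156506, minus strand) encodes a period protein that responds rapidly to outside signals such as cyclic AMP and glucocorticoids. It had 32.3, 54.0 and 55.0 CPM in D, E and F, against 27.9, 29.8 and 26.7 CPM in A, B and C. E and F lay far above DMSO, whereas D lay only a little above it. PER1 rose by a log2 change of 0.74 (95% CI 0.31 to 1.18, adjusted p = 0.0324), or 1.68-fold. Without D the value was 0.95 (adjusted p = 1.51e-06), while the call was lost without any 1 of the other libraries, where the adjusted p was 0.0859 (E left out), 0.107 (F), 0.111 (A), 0.0963 (B) or 0.122 (C).

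PER2 (ENSG00000132326, chr2:238244044-238290102, minus strand), the period gene whose loss shortens or stops rhythms in mice, also rose. It had 8.54, 8.77 and 10.2 CPM in D, E and F, against 6.56, 6.99 and 6.34 CPM in A, B and C. The groups did not overlap, and D lay close to E. PER2 rose by 0.47 on the log2 scale (95% CI 0.17 to 0.76, adjusted p = 0.0449), or 1.38-fold, which is just inside the threshold. The value was 0.51 without D (adjusted p = 0.00399). The call was lost without E (adjusted p = 0.0731), F (0.148), A (0.177), B (0.101) or C (0.164).

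PER3 (ENSG00000049246, chr1:7784291-7845177, plus strand), a period gene that is less needed for rhythms in mice, did not pass. Its levels were 19.6, 17.3 and 18.7 CPM in D, E and F, against 18.3, 15.4 and 17.2 CPM in A, B and C. The groups overlapped. The log2 change of 0.13 had a 95% CI of -0.14 to 0.40 (adjusted p = 0.50). Opposite-strand exons, among them those of UTS2, covered 16.6% of the PER3 exons.

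CRY1 and CRY2, which encode the cryptochromes that carry most of the repression of CLOCK and BMAL1, did not pass. CRY1 (ENSG00000008405, chr12:106991364-107093549, minus strand) had 44.7, 41.0 and 42.6 CPM in D, E and F, against 39.4, 36.6 and 40.0 CPM in A, B and C. All AVJ16 values of CRY1 were above all DMSO values, but by little, with a log2 change of 0.14 (95% CI -0.08 to 0.37, adjusted p = 0.369). CRY2 (ENSG00000121671, chr11:45847118-45883248, plus strand) had 8.54, 11.2 and 11.1 CPM in D, E and F, against 11.4, 10.7 and 9.57 CPM in A, B and C. The CRY2 groups overlapped, and the lowest of all 6 values was that of D. Its log2 fold change was -0.04 (95% CI -0.37 to 0.30, adjusted p = 0.896), and the sign turned without D, at 0.08.

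DBP (ENSG00000105516, chr19:48630030-48637379, minus strand), the output activator that in mouse tissues has one of the strongest daily rhythms, showed, like PER1, a wide spread among the AVJ16 libraries. DBP had 17.4, 31.9 and 25.4 CPM in D, E and F, against 21.5, 23.7 and 19.5 CPM in A, B and C. D was below every DMSO library, whereas E and F were above every DMSO library. The log2 fold change was 0.21 (95% CI -0.25 to 0.66, adjusted p = 0.533), with 0.40 without D (adjusted p = 0.0119) and -0.01 without E. Exons of SPHK2 on the opposite strand covered 10.2% of the DBP exons, and SPHK2 had a log2 change of -0.24 (adjusted p = 0.260).

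BHLHE40 (ENSG00000134107, chr3:4979437-4985323, plus strand), whose DEC1 protein is also known as a hypoxia and stress response factor, showed the same division between D and the other AVJ16 libraries. It had 32.3, 43.0 and 43.3 CPM in D, E and F, against 30.3, 38.8 and 28.3 CPM in A, B and C. D fell within the range of DMSO, while E and F were above it. The log2 fold change was 0.28 (95% CI -0.08 to 0.65, adjusted p = 0.271) with all libraries and 0.40 without D (adjusted p = 0.0127). The antisense RNA BHLHE40-AS1 overlaps 12.8% of its exons and was nearly silent, at no more than 0.235 CPM in AVJ16 and 0.550 CPM in DMSO. Its AVJ16 values were all below its DMSO values, at a log2 change of -1.88 that did not pass (adjusted p = 0.0623). That change passed in 3 of the 11 alternative settings in which the gene was tested. These were without D (adjusted p = 0.0291), library size alone (0.0465) and voom sample weights (0.00990).

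**Figure D3:**
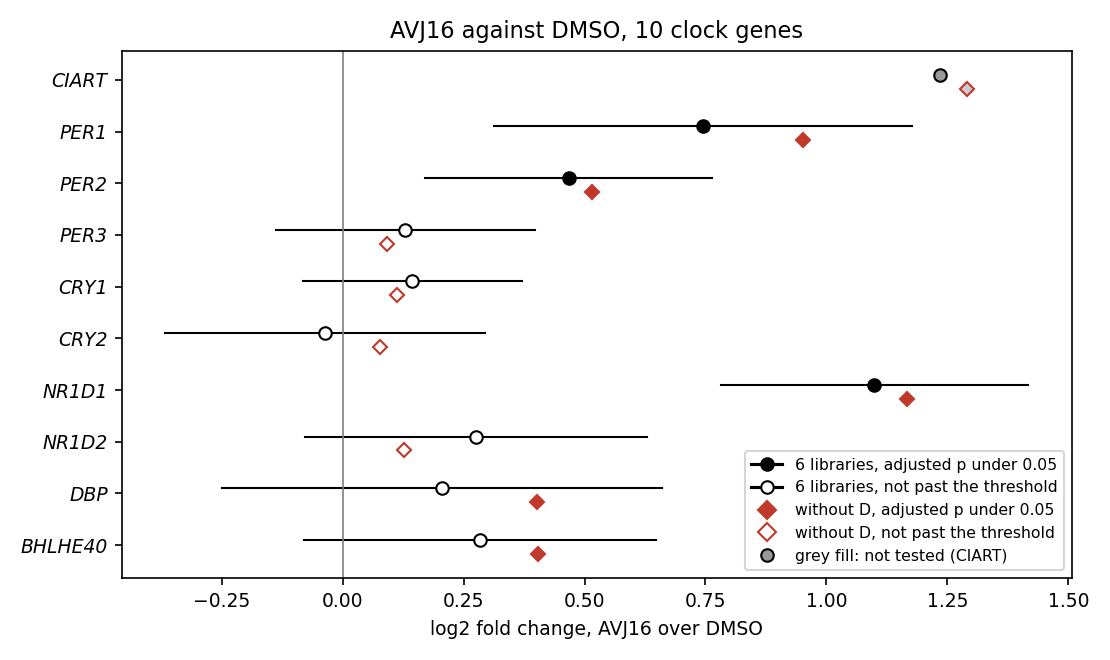
Log2 fold change of AVJ16 over DMSO for the 10 clock genes from all 6 libraries (circles, with 95% confidence intervals) and without library D (diamonds); filled symbols passed an adjusted p of 0.05, and CIART in grey has no test. NR1D1, PER1 and PER2 pass in both fits, and DBP and BHLHE40 pass only in the fit without D.

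The division within the AVJ16 group touched several of the clock genes. D was below both E and F in 7 of the 10 genes (CIART, PER1, PER2, CRY2, NR1D1, DBP and BHLHE40) and above both in PER3, CRY1 and NR1D2. Over all 16330 tested genes, D was below both in 7042 and above both in 7081, so such a position of D was common and not particular to the clock genes. Relative to the mean of E and F, D was lower by a log2 difference of -0.75 in PER1 and -0.72 in DBP, and higher by 0.41 in NR1D2. Differences beyond 0.5 in either direction were found in 2 of the 10 genes and in 29.4% of all tested genes. The part of the mitochondrial share of D in these values was not tested. Of the 9 tested genes, 5 passed without D and 1, NR1D1, passed without any other single library. Over all genes, 6251 of the 16785 tested without D passed, 2958 of them higher in AVJ16. Without another library 824 to 1586 passed, of 16592 to 16763 tested.

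**Figure D4:**
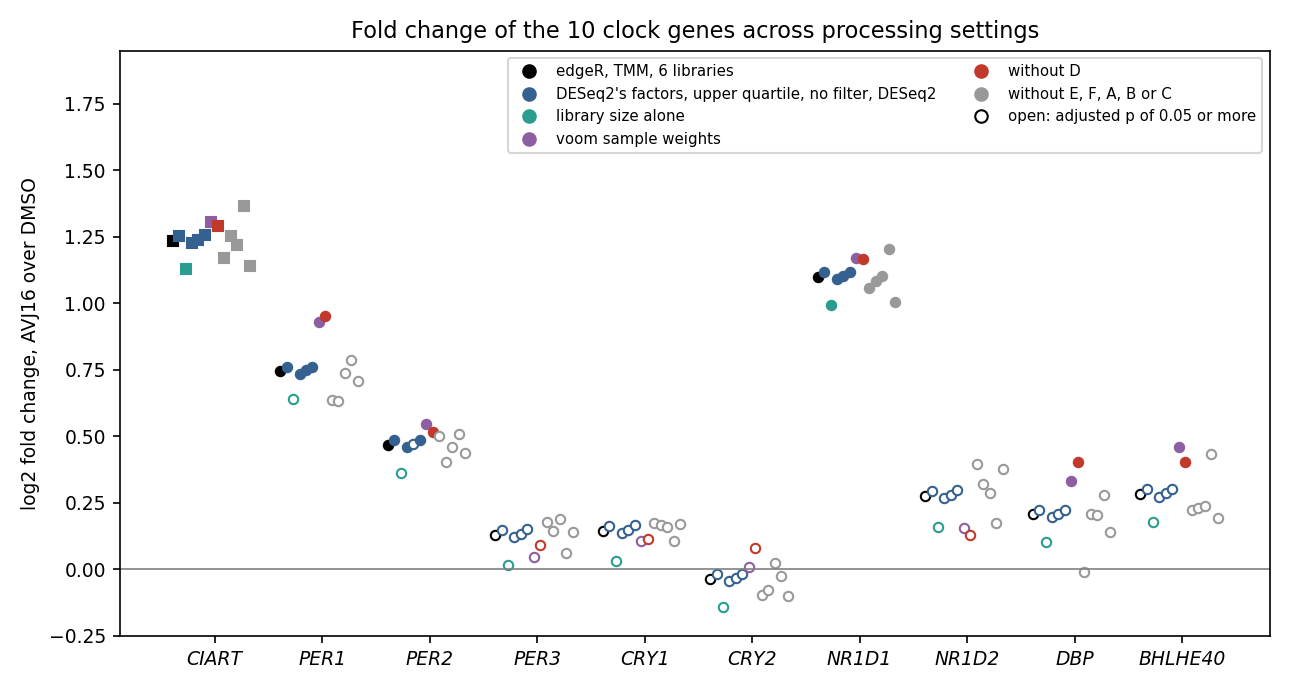
Log2 fold change of AVJ16 over DMSO for the 10 clock genes with all 6 libraries (black) and in 12 alternative settings (colours), side by side within each gene; open circles had an adjusted p of 0.05 or more, and CIART is drawn as squares with no test. NR1D1 stays filled in every setting at 0.99 to 1.20, PER1 and PER2 are filled in some, and DBP and BHLHE40 are filled with voom sample weights and without D.

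By level per length the 10 genes kept nearly the same order in both groups. In AVJ16 the mean CPM per kilobase of annotated exon was 14.5 ± 2.69 for NR1D2, 11.2 ± 1.78 for BHLHE40, 8.94 ± 0.389 for CRY1, 7.46 ± 0.689 for NR1D1, 6.73 ± 1.83 for PER1, 3.84 ± 1.12 for DBP, 3.59 ± 0.334 for CIART, 2.28 ± 0.141 for PER3, 1.66 ± 0.245 for CRY2 and 1.29 ± 0.126 for PER2 (SD, n = 3). In DMSO the order was NR1D2 at 12.0 ± 1.71, BHLHE40 at 9.23 ± 1.59, CRY1 at 8.09 ± 0.383, PER1 at 4.02 ± 0.222, NR1D1 at 3.47 ± 0.480, DBP at 3.33 ± 0.321, PER3 at 2.09 ± 0.182, CRY2 at 1.70 ± 0.151, CIART at 1.52 ± 0.233 and PER2 at 0.935 ± 0.0462. CIART thus stood above PER3 and CRY2 in AVJ16 and below both in DMSO, and NR1D1 and PER1 changed places. Neighbours whose libraries overlapped in level were NR1D2 and BHLHE40, BHLHE40 and CRY1, NR1D1 and PER1, PER1 and DBP, DBP and CIART, and CRY2 and PER2 in AVJ16. In DMSO the overlapping neighbours were NR1D2 and BHLHE40, BHLHE40 and CRY1, PER1 and NR1D1, NR1D1 and DBP, and CRY2 and CIART. The lengths are unions of all annotated exons, so the level of a gene with many rare exons can be understated.

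The genes whose profile lay closest to that of CIART were found among 11219 other genes whose mean reached 5 CPM, by Euclidean distance of centred log2 CPM over the 6 libraries. SAT1, a spermidine and spermine acetyltransferase, was the closest at a distance of 0.133, with 122 ± 10.8 CPM in AVJ16 and 52.9 ± 5.62 CPM in DMSO. NR1D1 was the second closest, at 0.191. The others were AL133476.1 at 0.195, IGFBP3, which encodes a binding protein of insulin-like growth factors, at 0.214, and AL365181.2 at 0.235. The profiles share 6 libraries and 1 contrast, and these genes had log2 changes of 1.07 to 1.21. The ranking starts from the values of CIART that chose the list, so a gene with a like rise lies near it by construction. Nothing is read from the place of NR1D1 in it.

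Most of the remaining clock genes, among them the activators CLOCK and ARNTL, did not pass the test. Of 34 further clock genes, 33 were tested, of which 3 rose, 1 fell and 29 did not pass, with a median log2 change of 0.03 beside -0.01 over all tested genes. Over all tested genes 5.87% rose and 8.77% fell, 14.6% in either direction, so the share of calls in this list was near the background. CLOCK had 47.2, 31.3 and 36.3 CPM in D, E and F, against 40.2, 35.1 and 46.6 CPM in A, B and C, and ARNTL had 7.67, 5.73 and 7.88 CPM in D, E and F, against 7.02, 8.18 and 9.03 CPM in A, B and C. In both activators the groups overlapped, with log2 changes of -0.09 for CLOCK (95% CI -0.47 to 0.29, adjusted p = 0.773) and -0.18 for ARNTL (-0.56 to 0.19, adjusted p = 0.491). NPAS2, the paralog of CLOCK, rose by 0.48 (SE 0.13, adjusted p = 0.0448), with 19.5, 17.6 and 17.6 CPM in D, E and F, against 13.0, 14.9 and 11.2 CPM in A, B and C. RORA, the activator that shares its sites with the REV-ERB receptors, had a log2 change of -0.16 (adjusted p = 0.636).

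NFIL3, the repressor of D-box genes and itself a known target of REV-ERB repression, had the largest rise of the further clock genes. It had 26.1, 24.7 and 26.6 CPM in D, E and F, against 16.6, 15.6 and 15.4 CPM in A, B and C. Both groups were tight and far apart, and D lay between E and F. The log2 fold change was 0.70 (SE 0.11, adjusted p = 0.00428), and the call held in each of the 12 alternative settings. Of the other D-box factors, TEF had 11.1, 18.2 and 17.4 CPM in D, E and F, against 13.0, 11.5 and 13.7 CPM in A, B and C, a log2 change of 0.30 (adjusted p = 0.320) that passed at 0.49 without D (adjusted p = 0.00241). D was the lowest of all 6 libraries for TEF, as it was for DBP, another member of its PAR bZIP family. HLF, the other member of that family, was scarcely present at 0.536 to 0.777 CPM in AVJ16 and 0.537 to 0.865 CPM in DMSO (log2 fold change -0.25, adjusted p = 0.611). BHLHE41 (DEC2), the paralog of BHLHE40, had a log2 change of 0.05 (adjusted p = 0.858).

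Among 7 ubiquitin ligase subunits and proteases that act on clock proteins, 1 rose, 1 fell and 5 did not pass, beside 5.87% higher and 8.77% lower over all tested genes. SIAH2, a ligase known to act on REV-ERBα, rose by 0.56 (SE 0.12, adjusted p = 0.0145), with 46.5, 58.1 and 57.7 CPM in D, E and F, against 37.1, 36.4 and 36.6 CPM in A, B and C. BTRC, the β-TrCP1 subunit that recognises phosphorylated PER proteins and β-catenin, fell by 0.59 (adjusted p = 0.0176), with 31.3, 24.2 and 25.5 CPM in D, E and F, against 37.4, 42.3 and 41.9 CPM in A, B and C. In both genes the groups did not overlap, and D was the AVJ16 library nearest to DMSO. None of the 5 kinases of clock proteins and none of the 11 cofactors passed. Of the 4 calls among the further clock genes, only that of NFIL3 held without each single library: the call of SIAH2 was lost without F, A, B or C (adjusted p of up to 0.0751), and those of BTRC and NPAS2 without E, F, A, B or C (adjusted p of up to 0.0963 and 0.172). The NPAS2 call was also lost with scaling by library size alone (adjusted p = 0.0798) or by upper quartile, and with no filter (adjusted p = 0.0506).

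**Figure D5:**
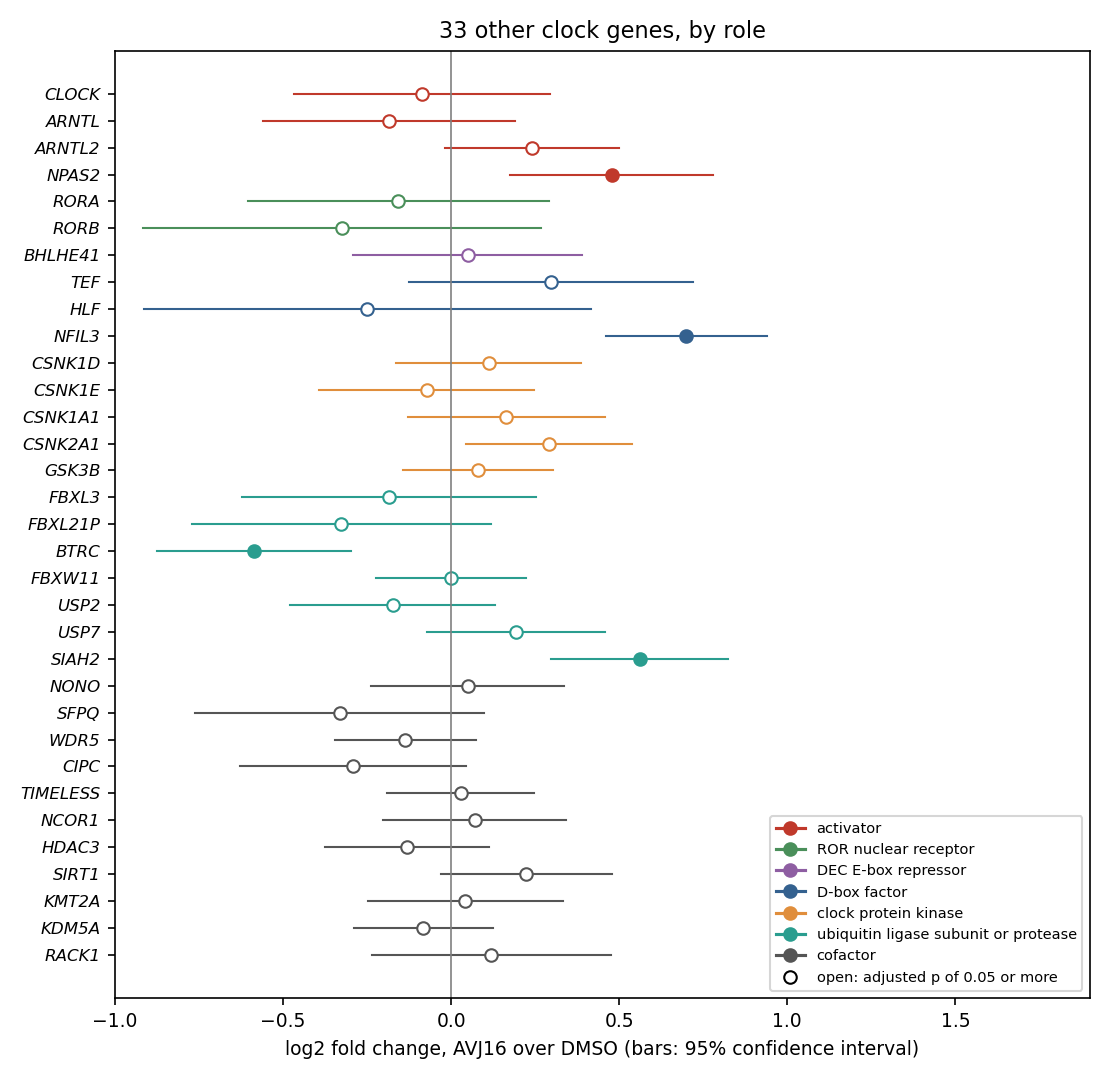
Log2 fold change of AVJ16 over DMSO with 95% confidence intervals for the 33 further clock genes tested, coloured by role; filled circles passed an adjusted p of 0.05. NPAS2, NFIL3 and SIAH2 lie to the right of 0, BTRC lies to the left, and the other 29 are open.

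Genes known to lie downstream of the clock were examined next. Of 8 genes that the clock drives in other tissues, 1 rose, 1 fell and 6 did not pass, beside 5.87% that rose and 8.77% that fell over all tested genes. The gene that fell was PPARA, a lipid-sensing nuclear receptor, with a log2 change of -0.45 (SE 0.12, adjusted p = 0.0346), and its call was lost without E, F, A, B or C (adjusted p of up to 0.188).

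PER1 is induced through cyclic AMP and CREB and through the glucocorticoid receptor, and other genes of these inputs were examined for that reason. Of 9 tested genes induced by CREB or serum, 2 rose and 7 did not pass, beside 5.87% of all tested genes that rose. The genes that rose were NR4A2, an orphan nuclear receptor (log2 fold change 0.86, adjusted p = 0.0139), and DUSP1, a phosphatase of MAP kinases (0.83, adjusted p = 0.00452). The 7 that did not pass lay on both sides of 0. Below it were NR4A3 at -0.54, FOS at -0.50, EGR1 at -0.49 and JUNB at -0.08 (adjusted p = 0.273, 0.133, 0.295 and 0.799). Above it were NR4A1 at 0.51, CREM at 0.17 and FOSB at 0.03 (adjusted p = 0.228, 0.390 and 0.958). Of 7 genes induced by the glucocorticoid receptor, 3 rose, 1 fell and 3 did not pass, with the same background of 5.87% higher and 8.77% lower. DUSP1 is also on this list, and the others that rose were the kinase gene SGK1 (0.75, adjusted p = 0.00965) and ERRFI1, a feedback inhibitor of the EGF receptor (0.85, adjusted p = 0.00248). TSC22D3 (GILZ), one of the most direct glucocorticoid targets, went the other way. It had 39.2, 48.6 and 41.6 CPM in D, E and F, against 81.4, 89.5 and 78.3 CPM in A, B and C, a log2 change of -0.95 (SE 0.12, adjusted p = 0.00199). The 3 that did not pass were FKBP5 at -0.19, ZBTB16 at -0.15 and KLF9 at 0.13 (adjusted p = 0.364, 0.746 and 0.490). The calls of DUSP1, ERRFI1 and TSC22D3 held in each of 12 settings, whereas that of NR4A2 was lost without F, A, B or C (adjusted p of up to 0.0771) and that of SGK1 without B or C (up to 0.0557).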

How the data were processed

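Poly(A) RNA of 3 AVJ16 and 3 DMSO libraries of H1299 cells was sequenced, with single-end reads from a stranded KAPA kit. Per the labels and the methods of the study, the authors trimmed reads with cutadapt 2.10, aligned them with TopHat2 2.1.1 to GRCh38 (Ensembl 99) and deposited counts per gene from HTSeq 2.01, having removed genes with fewer than 10 counts in all. The labels do not give the column letters, so A, B and C were taken as DMSO and D, E and F as AVJ16 from the condition bar of the study's heat map. The 6 columns of values normalised by the authors with DESeq2 1.36.0 were not used. Some genes of the lists are not reported here.

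Counts were tested with edgeR 4.0.16 (R 4.3.3), after filterByExpr (minimum count 10, minimum total 15) and TMM scaling, by the two-sided quasi-likelihood test with robust dispersion, a prior count of 0.125 and Benjamini-Hochberg adjustment over 16330 genes, at a threshold of 0.05. SEs were derived from the F statistic. The biological coefficient of variation was 13.5%. The script was tested on simulated data. Profiles were compared on log2 CPM with a prior count of 2. Exon lengths, positions and overlaps came from GENCODE 44, promoters from RefSeq.

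The clock genes and all other lists were chosen with earlier results of these data known. Named were all members, further clock genes past the threshold, 8 fixed ones whatever their p, up to 4 genes past the threshold in each other list, genes whose exons overlap a member, and the 5 profiles nearest to CIART. The tested genes induced by CREB or serum, or by the glucocorticoid receptor, that did not pass were named as well. The methods of the study describe RNA-seq in triplicate and biological repeats for its experiments in general, whereas the labels do not say what separates the libraries of a group. The p-values measure the spread between these libraries. Alternatives were scaling by library size alone, by upper quartile or with the size factors of DESeq2, no filter, DESeq2 1.42.0, voom with sample weights (limma 3.58.1), and each library left out.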

Additional observations from a re-analysis of the deposited data

How the results depend on the processing

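No paired analysis was possible because the columns carry letters and no replicate numbers. Of the 9 tested clock genes, 3 passed with all libraries, 1 with library size alone, 5 with voom sample weights, and 1 to 5 when a library was left out, where 5 was the count without D and 1 the count without any other. NR1D1 was among them in each of these settings. Of the further clock genes 4 passed, 14 with voom sample weights, and 1 to 10 when a library was left out. Over all genes 2390 passed, 7136 with voom sample weights, and 824 to 6251 when a library was left out. Higher in AVJ16 were 958 genes, 523 with library size alone, 3399 with voom sample weights and 231 to 2958 when a library was left out. Lower were 1432, 2219 with library size alone, 3737 with voom sample weights and 527 to 3293 when a library was left out. Library size alone moved the median of all genes to -0.12, and 19.1% of its calls were higher, against 40.1% with TMM. Under it PER1 was at 0.64 (adjusted p = 0.0585) and PER2 at 0.36 (adjusted p = 0.108), and with no filter PER2 had an adjusted p of 0.0561. Among the named genes, only values that had not passed changed sign. CRY2 turned to 0.0070 with voom sample weights and 0.078 without D (-0.10 to 0.078 when a library was left out, 0.023 without A), DBP to -0.0092 without E (-0.0092 to 0.40), CLOCK to 0.041 without E and 0.023 without C (-0.26 to 0.041), RORA to 0.052 without C (-0.31 to 0.052), and BHLHE41 to -0.063 with library size alone, -0.0076 with voom sample weights and -0.049 without B (-0.049 to 0.15). The cause of these differences was not tested. With 3 libraries a group, many intervals in the text span 0, so small changes could not be told from none.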
